A study of Caenorhabditis elegans with 6 samples.

Results

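Nicotinic acetylcholine receptor subunit transcripts were followed in RNA-seq libraries of dopamine and serotonin neurons of the nematode Caenorhabditis elegans. The members were all genes whose whole WormBase symbol is acr- followed by a number, together with unc-29, unc-38, unc-63, lev-1, lev-8, deg-3, des-2 and eat-2, and 29 of the 47063 genes in the deposited tables met this rule. There were 3 libraries of dopamine neurons and 3 of serotonin neurons by their labels. All 6 came from wild-type animals of the strain FQ939, taken as embryos and larvae, and the labels name no treatment or transgene. How the neurons were marked and collected was not given in the sources used here. Nothing in the labels says that the libraries of a group came from separate cultures, so the p-values rest on a spread between libraries that may be technical. The study as titled concerns ion channels of neurons that sense food by touch, and the comparison of the 2 cell types asked here which receptor subunits each of them carries.

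Nicotinic receptors are pentameric channels that open when acetylcholine binds and let cations in. Subunits are called alpha when they carry a pair of neighbouring cysteines in the acetylcholine-binding site, and non-alpha when they lack it. The worm has an unusually large set, which sequence comparison divides into groups named after UNC-38, UNC-29, ACR-8, ACR-16 and DEG-3. In body-wall muscle, UNC-29, UNC-38, UNC-63, LEV-1 and LEV-8 form the receptor that the worming drug levamisole opens, while ACR-16 forms a second receptor that nicotine opens. In motor neurons ACR-2, ACR-3, ACR-12, UNC-38 and UNC-63 form another. The members lie on all 6 chromosomes, 7 each on V and X, 6 on I, 4 on II, 3 on IV and 2 on III.

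The labels were checked against defining genes. The dopamine transporter gene dat-1 read 11060.1 to 23082 normalized counts in the dopamine and 59.8 to 93.3 in the serotonin libraries, and the serotonin synthesis gene tph-1 17.98 to 157 and 3346 to 5782. Reads assigned to genes came to between 20418663 and 31559047 per library, and ribosomal RNA took 40.9% of the reads of dopamine 1 and 41.5% of those of serotonin 3. It took 7.53% to 13.7% of the reads of each of the other libraries. Pharyngeal muscle markers were far higher in the serotonin libraries, where their summed level was 37289.9 to 70033 normalized counts, against 386 to 767 in the dopamine libraries. All 6 of these genes passed the test in that direction, beside 6.36% of all tested genes, and none of the 6 was at 0 in any library. Pan-neuronal genes leaned the other way, with a summed level of 96598 to 156151 in dopamine and 53675 to 85528 in serotonin libraries. Of these 15 genes, 7 passed the test toward dopamine neurons and 13 did so with the replicate number as a block. Over all tested genes, 3.16% and 6.78% passed in that direction. Body-wall muscle markers summed to 32657 to 52194 in dopamine and 27104 to 39279.7 in serotonin libraries. Of these 8 genes, unc-54 passed toward dopamine neurons, unc-15, unc-22 and unc-45 passed toward serotonin neurons, and 4 did not pass. The sums lean heavily on unc-54, which alone read 25419 to 46551 in dopamine and 10013 to 16484 in serotonin libraries. By direction, 6 of the 8 log2 fold changes were below 0, toward serotonin neurons. In such bulk samples, fewer cells of a type and less RNA per cell cannot be told apart.

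Levels of different subunits were compared in FPKM, which takes gene length into account. In both cell types acr-12 was first by a wide margin, at 48.7 ± 18.1 FPKM in dopamine and 34.1 ± 6.41 in serotonin libraries (SD, n = 3 each). It encodes a subunit used in motor neuron receptors, and it made up 28.8% to 41.6% of the summed FPKM of the 29 subunits in the dopamine libraries and 28.3% to 36.2% in the serotonin libraries. Its level lay above that of 93.6% of protein-coding genes in dopamine and of 91.2% in serotonin neurons. Normalized counts of acr-12 were 1425, 1910.2 and 2955 in dopamine 1, 2 and 3 and 1307, 1316 and 1789.9 in serotonin 1, 2 and 3. The groups overlapped, and a log2 fold change of 0.46 (95% interval -0.20 to 1.12) missed the threshold at a limma adjusted p of 0.409. Its log2 fold change was -0.48 after scaling to pan-neuronal genes.

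Below acr-12 the order of subunits differed between the cell types. In dopamine neurons unc-63 followed at 19.2 ± 7.51 FPKM, then acr-20 at 12.98 ± 2.35, unc-38 at 12.1 ± 3.51, acr-8 at 8.18 ± 2.46, acr-24 at 5.36 ± 2.29 and acr-5 at 4.77 ± 1.87. In serotonin neurons acr-25 came second at 14.04 ± 1.67 FPKM, followed by unc-63 at 8.79 ± 2.45, acr-3 at 5.15 ± 1.04, acr-15 at 4.23 ± 1.42, acr-10 at 3.72 ± 1.48 and acr-20 at 3.66 ± 1.92. The steps from unc-63 to acr-20, from acr-20 to unc-38 and from acr-24 to acr-5 in dopamine neurons were smaller than the SD between libraries, as were those from acr-3 through acr-20 in serotonin neurons. By group mean, 15 subunits stood at 1 FPKM or above in dopamine and 22 in serotonin neurons, and 4 and 2 stood at 10 FPKM or above. All 29 together summed to 134 ± 27 FPKM in dopamine and 107 ± 8.38 in serotonin libraries, and the lowest dopamine library, at 114.65, was level with the highest serotonin library, at 114.61.

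**Figure D1:**
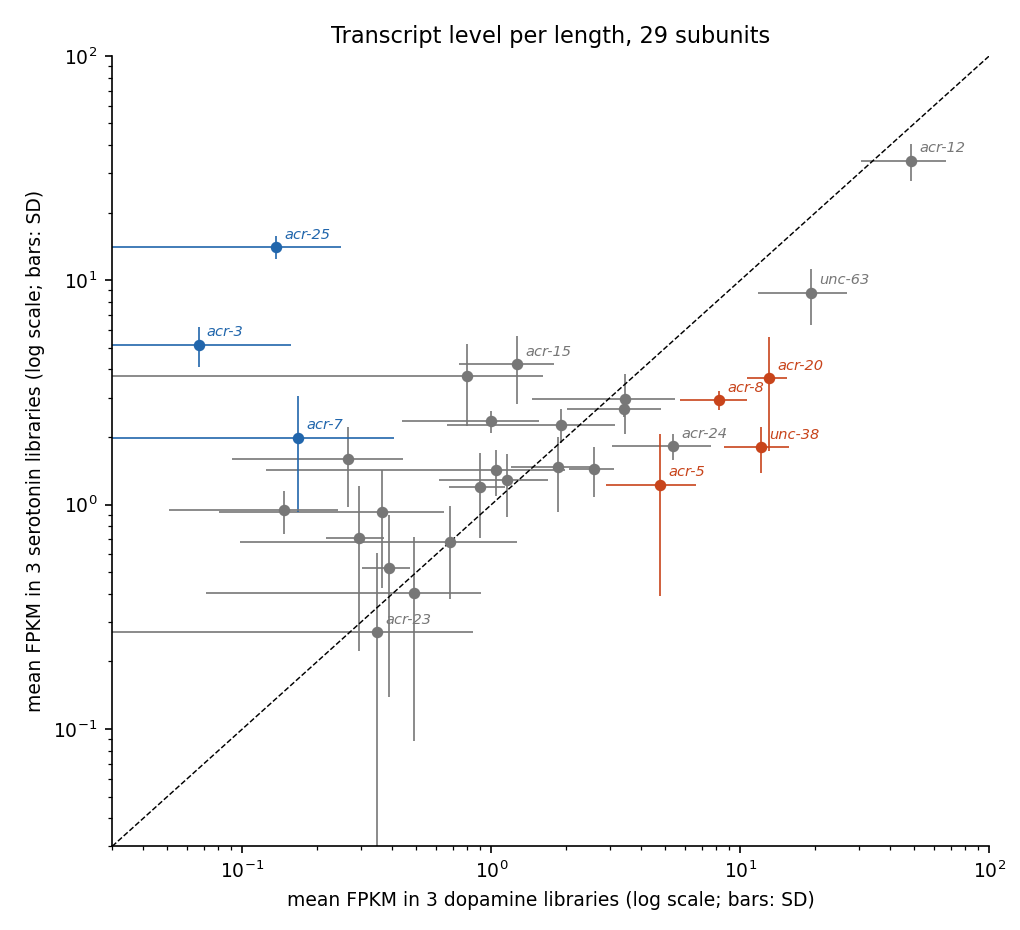
Mean FPKM of each of the 29 subunits in the 3 dopamine (x axis) and 3 serotonin libraries (y axis), both on log scales, with bars for the SD (bars that would pass below 0.03 end there) and a dashed line of equal level. Red and blue points passed the test toward dopamine and serotonin neurons; acr-12 is highest on both axes, acr-25 and acr-3 lie far above the line, and unc-38 and acr-20 lie below it.

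Of the 29 members, 28 had at least 10 normalized counts in at least 3 libraries and were tested. They were compared on the scale of log2(normalized count + 1) with limma across all 15750 genes that passed this filter, with Benjamini-Hochberg adjustment and a threshold of 0.05. The subunits unc-38, acr-20, acr-8 and acr-5 were higher in dopamine neurons, and acr-25, acr-3 and acr-7 were higher in serotonin neurons. These 7 of 28 stand beside 9.52% of all tested genes called, with 3.16% called toward dopamine neurons, against 4 subunits, and 6.36% toward serotonin neurons, against 3. With the replicate number as a block, 6 subunits passed in each direction, where the same fit called 18.5% of all genes, 6.78% and 11.7% by direction. By edgeR with the same block, 6 passed toward dopamine and 3 toward serotonin neurons, against 12.5% of all genes, 4.96% and 7.54% by direction. By edgeR 3 and 2 passed, against 7.39% of all genes, 2.64% and 4.75% by direction. Scaled to pan-neuronal genes, which moved the median log2 fold change of all genes from -0.07 to -0.985, 1 subunit passed toward dopamine and 8 toward serotonin neurons, against 21.9% of all genes, 1.02% and 20.9% by direction. The groups did not overlap for 7 subunits with dopamine above and 8 with serotonin above, against 27.4% of all tested genes, 12.3% and 15.1% by direction. The median log2 fold change was -0.28 over the 28 tested members and -0.23 over all 29 without a filter, and -0.07 and -0.20 over all genes. Since acr-25, acr-3 and acr-11 passed the filter through the serotonin libraries alone, counts over the tested members are descriptions only.

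**Figure D2:**
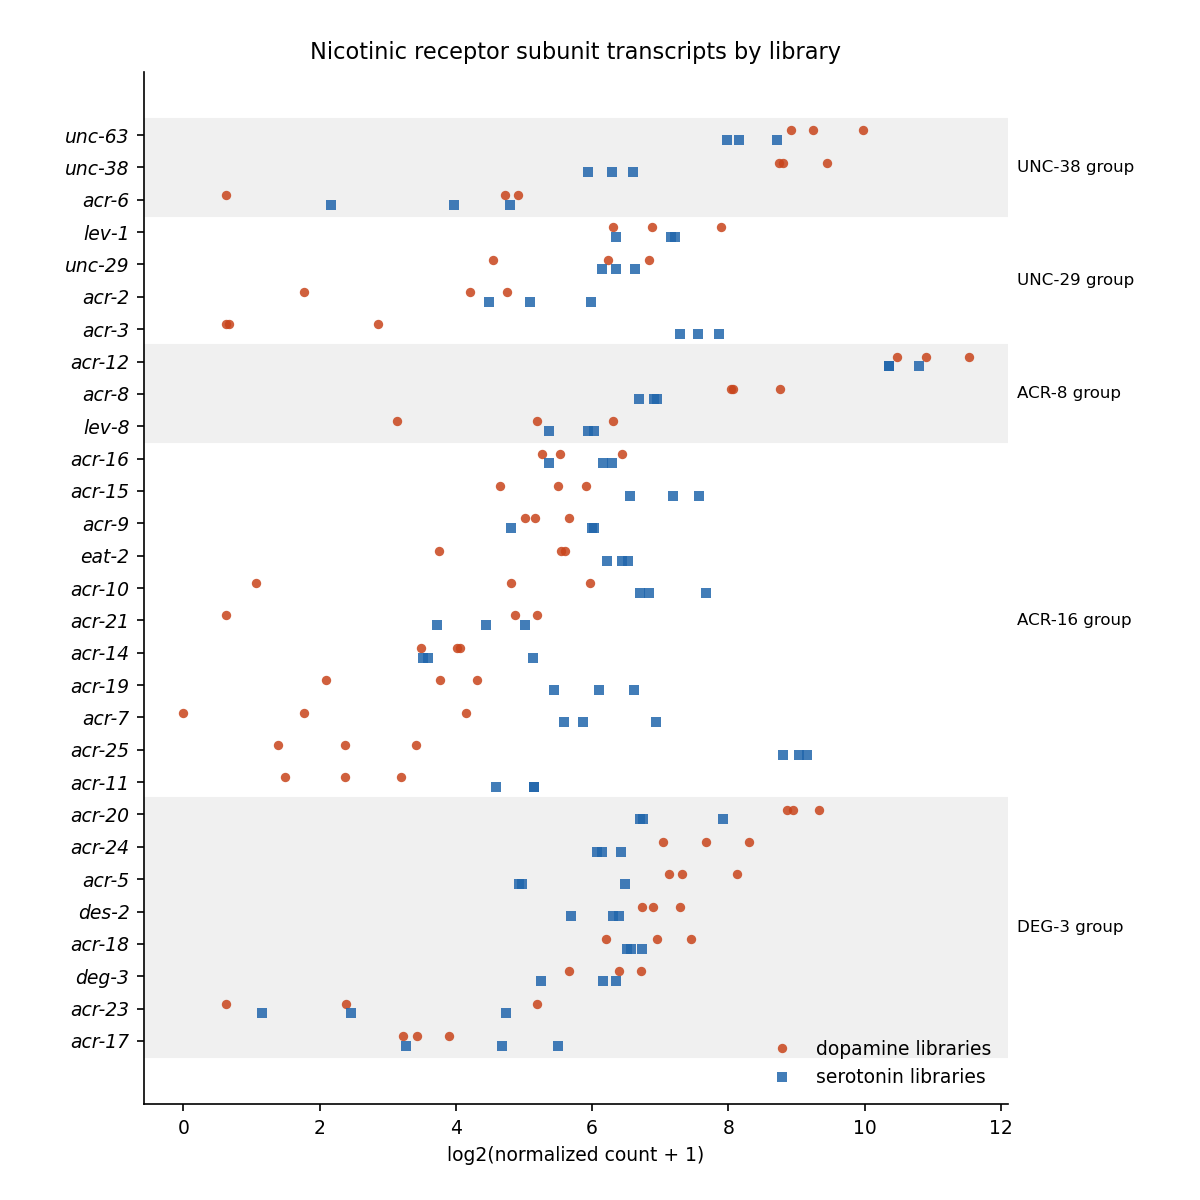
Levels of the 29 subunits in each library as log2(normalized count + 1), with dopamine libraries as circles and serotonin libraries as squares, arranged by sequence group. The 3 dopamine libraries of acr-25 and acr-3 lie far below the 3 serotonin libraries, those of unc-38 and acr-20 lie above them, and those of acr-12 overlap.

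The most clearly separated subunit on the dopamine side was unc-38, an alpha subunit of both the muscle levamisole receptor and the motor neuron receptor (WBGene00006774, chromosome I, 4897620 to 4900974). It held 429, 446 and 701 normalized counts in dopamine 1, 2 and 3 and 77.4, 96.5 and 60.1 in serotonin 1, 2 and 3. Every dopamine library thus lay several-fold above every serotonin library, and the group means differed 6.74-fold. Its log2 fold change was 2.73 (SE 0.37, limma adjusted p = 6.59e-04), and it passed under each of the 21 alternative fits, including the one scaled to pan-neuronal genes (1.79, adjusted p = 0.0173).

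Its close relative unc-63, which serves in the same receptors, was the most abundant alpha subunit of the UNC-38 group in both cell types. Values were 607, 483 and 1005 in the dopamine libraries and 285, 252 and 419.9 in the serotonin libraries. All dopamine values were above all serotonin values, but serotonin 3 came near dopamine 2. Its log2 fold change of 1.09 (SE 0.35) missed the threshold, with a limma adjusted p of 0.0768. The gene passed with the replicate block at a limma adjusted p of 0.00707, and the alternatives ranged from 0.00707 to 0.678. The FPKM of unc-63 was 1.29 to 1.71 times that of unc-38 in dopamine and 3.11 to 8.32 times in serotonin libraries.

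The subunit acr-20 belongs to the DEG-3 group, as does the target of the worming drug monepantel (WBGene00000059, chromosome II, 14373831 to 14377896). It held 645, 495 and 464 normalized counts in the dopamine and 242, 107 and 103 in the serotonin libraries. The lowest dopamine value was above the highest serotonin value, that of serotonin 1, and serotonin 1 stood above the other serotonin libraries. Its log2 fold change of 1.92 (SE 0.39) had a limma adjusted p of 0.0086. Scaling to pan-neuronal genes ended the call (0.98, adjusted p = 0.135), as did leaving out both libraries rich in ribosomal RNA (1.57, adjusted p = 0.0887), and the alternatives ranged from 4.74e-04 to 0.135 in adjusted p.

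In the same group, acr-5, known as a marker of a class of motor neurons, held 158, 139.5 and 278 normalized counts in the dopamine and 88.1, 30.5 and 29.5 in the serotonin libraries. The groups did not overlap, although serotonin 1 again stood above the other serotonin libraries. It passed narrowly at a limma adjusted p of 0.0355 (log2 fold change 2.06, SE 0.55). It passed under 12 of the 21 alternative fits, and the alternatives ranged from 0.0107 to 0.163 in adjusted p. Leaving out dopamine 1 ended the call (limma adjusted p of 0.0625), as did leaving out dopamine 3 (0.161), serotonin 2 (0.115) or serotonin 3 (0.11), edgeR (0.0709) and scaling to pan-neuronal genes (0.163).

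For acr-24 of the same group, values were 203, 131 and 316 in the dopamine and 84.9, 66.5 and 69.98 in the serotonin libraries. All dopamine libraries lay above all serotonin libraries. The log2 fold change of 1.46 (SE 0.44) missed the threshold at a limma adjusted p of 0.0624. With the replicate block acr-24 passed at a limma adjusted p of 0.0234, and without dopamine 2 at 0.0318, within a range over the alternatives of 0.0105 to 0.352.

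The subunit acr-8 can take the place of lev-8 in the muscle receptor, and in the parasitic nematode Haemonchus contortus it is part of the levamisole receptor. It held 263, 433 and 268 normalized counts in the dopamine and 119.5, 123 and 102 in the serotonin libraries. The serotonin values lay close together, and all dopamine values were above them. Its log2 fold change of 1.44 (SE 0.36) had a limma adjusted p of 0.0277. It passed under 12 of the 21 alternative fits, and the alternatives ranged from 0.00209 to 0.397 in adjusted p. Leaving out dopamine 2, dopamine 3 or any 1 of the serotonin libraries ended the call (limma adjusted p of 0.0935, 0.0581 and 0.0679 to 0.0771), as did scaling to pan-neuronal genes (0.397) and dropping the filter (0.0649).

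On the serotonin side acr-25, an ACR-16 group gene, showed the widest gap (WBGene00043066, chromosome IV, 6464305 to 6468479). Its normalized counts were 4.17, 1.63 and 9.65 in the dopamine and 448, 568 and 524 in the serotonin libraries. These came from 4, 3 and 16 reads in dopamine 1, 2 and 3 and 1139, 1137 and 427 in serotonin 1, 2 and 3. The serotonin values lay close together, and the group means differed 99.7-fold. Dopamine 3 held 16 of the 23 dopamine reads, and without it the dopamine mean was 2.9 normalized counts and the log2 fold change -7.12. The log2 fold change was -6.61 (SE 0.62, limma adjusted p = 4.42e-05), and it passed under each of the 21 alternative fits. The 6 pharyngeal muscle markers were 85.3-fold higher by their summed level in the same libraries, and their part in the level of acr-25, acr-3 and acr-7 was not tested.

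The non-alpha subunit acr-3, a partner of ACR-2 in the motor neuron receptor, had a similar pattern at a lower level (WBGene00000043, chromosome X, 6709538 to 6712925). It held 6, 1 and 1 reads in the dopamine libraries and 590, 311 and 152 in the serotonin libraries. In normalized counts these were 6.25, 0.54 and 0.600 against 232, 155 and 187, a 77.7-fold difference in means. Dopamine 1 held 6 of the 8 dopamine reads, and without it the dopamine mean was 0.57 normalized counts and the log2 fold change -6.92. The size of the difference also depends on the number added before the logarithm. The log2 fold change was -6.18 (SE 0.82, limma adjusted p = 5.67e-04), -6.58 with 0.5 added and -4.28 with 8 added, and it passed in all 3 fits and under each of the other alternatives.

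The gene acr-2 lies 229 bases upstream of acr-3 on the same strand of chromosome X. Normalized counts of acr-2, in which gain-of-function mutations cause convulsions, were 26.1, 17.4 and 2.41 in the dopamine and 62.5, 21.5 and 33.1 in the serotonin libraries. These overlapped, and a log2 fold change of -1.61 (95% interval -3.64 to 0.42) missed the threshold at a limma adjusted p of 0.34. Per length, acr-3 stood at 4.22 to 8.22 times acr-2 in serotonin libraries. In dopamine 1, 2 and 3 its FPKM was 0.17, 0.01 and 0.02, against 0.62, 0.41 and 0.06 for acr-2. Dopamine 2 and dopamine 3 held 1 read of acr-3 each, and dopamine 3 held 4 of acr-2, so ratios there are uncertain. Thus acr-3 lay above acr-2 in every serotonin library and below it in every dopamine library, and this difference was not tested. Exons of acr-2 overlap other genes on the opposite strand over 7.36% of their length, so some of its reads are uncertain, and acr-3 has no such overlap.

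The ACR-16 group gene acr-7 passed at a low level, with 16, 0 and 4 reads in the dopamine and 146, 94 and 99 in the serotonin libraries. In normalized counts these were 16.7, 0 and 2.41 against 57.4, 46.99 and 121.5. Serotonin 3 was highest and dopamine 2 had no read. Its log2 fold change of -4.16 (SE 1.08) had a limma adjusted p of 0.0312. It passed under 14 of the 20 alternative fits that gave it a value, and these ranged from 0.00592 to 0.152 in adjusted p. Leaving out dopamine 3 (limma adjusted p of 0.0811) or any 1 of the serotonin libraries (0.0798 to 0.152) ended the call, as did edgeR without and with the replicate block (0.139 and 0.0556). Dopamine 1 held 16 of the 20 dopamine reads, and the log2 fold change without it was -5.24. Other genes overlap 8.07% of its exonic bases on the opposite strand, among them the kinesin gene klp-3.

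**Figure D3:**
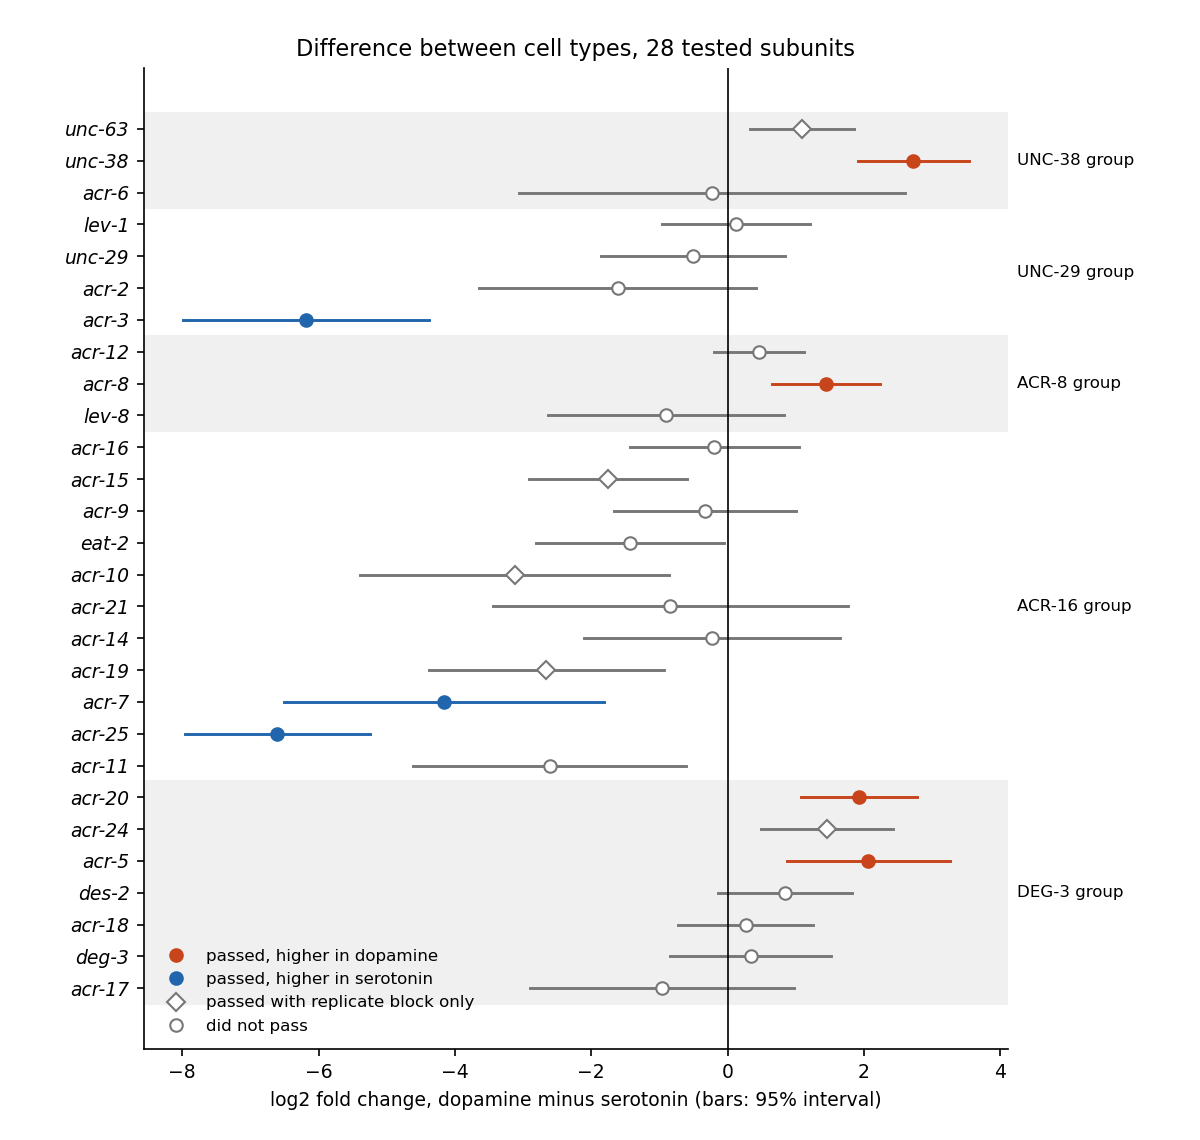
Log2 fold change of the 28 tested subunits, dopamine minus serotonin, with 95% intervals and arranged by sequence group. Filled points passed the test, diamonds passed with the replicate block only, and open circles did not pass; the points of the ACR-16 group lie to the left of 0 (3 of the 11 do not after quantile normalization) and acr-25 and acr-3 are farthest out.

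Across the 11 members of the ACR-16 group, the one related to the vertebrate alpha-7 receptor, every log2 fold change was below 0, although those of acr-16, acr-21 and acr-14 were 0.11, 0.22 and 0.45 after quantile normalization. The group's median was -1.75. Over all 15750 tested genes, 8346 log2 fold changes were below 0, and the median was -0.07. In this group acr-25 and acr-11 passed the filter through the serotonin libraries alone, so the tally is a description only. Of the 11 members, acr-25 and acr-7 passed, and acr-10, acr-15 and acr-19 passed in addition with the replicate block in limma. With the same block in edgeR, acr-19 passed (adjusted p = 0.0429), while acr-15 (0.0564) and acr-10 (0.169) did not. For acr-10 the values were 27.1, 1.09 and 61.5 in the dopamine and 113, 204 and 103 in the serotonin libraries, with a wide spread among the former. Its limma adjusted p was 0.0896, 0.046 with the block and 0.0408 without dopamine 3, within a range of 0.025 to 0.265.

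For acr-15 they were 59.4, 44.1 and 24.1 against 189, 93.5 and 145 (log2 fold change -1.75, limma adjusted p = 0.0627, 0.0239 with the block, range 0.0129 to 0.249). For acr-19 they were 18.8, 3.27 and 12.7 against 96.7, 42.5 and 67.5 (log2 fold change -2.66, limma adjusted p = 0.0572, 0.0157 with the block and 0.0393 without dopamine 1, range 0.0121 to 0.227). In all 3 genes each serotonin library was above each dopamine library. The same held for acr-11, at 4.72 ± 3.22 against 30.7 ± 6.63, and for eat-2, at 35.3 ± 19.8 against 83.7 ± 9.26, neither of which passed (limma adjusted p = 0.107 and 0.207). Among all tested genes, 15.1% were separate in this direction.

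The gene eat-2 encodes a subunit known from pharyngeal muscle, where it sets the rate of pumping. Its serotonin level of 2.35 ± 0.26 FPKM stood beside 84.01 to 197.95 FPKM for the pharyngeal myosin gene myo-2 in the same libraries. In dopamine libraries myo-2 stood at 0.77 to 1.54 FPKM. The part of pharyngeal muscle RNA in the levels of eat-2, acr-10, acr-11, acr-15 and acr-19 was not tested. The namesake acr-16, the nicotine receptor of body-wall muscle, was at 56.3 ± 26.1 against 62.7 ± 19.6 normalized counts (95% interval of the log2 fold change -1.43 to 1.04). The remaining acr-9, acr-14 and acr-21 had means of 13.7 to 51.3 normalized counts in either cell type, overlapped and did not pass.

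The ACR-16 group held 5.24% ± 1.48 of the summed FPKM of the 29 subunits in dopamine and 30.7% ± 2.34 in serotonin libraries (SD, n = 3 each). The UNC-38 group held 23.4% ± 3.89 and 10.3% ± 1.21, and the DEG-3 group 24.1% ± 4.92 and 12.4% ± 2.86. The ACR-8 group, which contains acr-12, held 42.7% ± 6.32 and 36% ± 3.44. The UNC-29 group held 4.57% ± 2.74 and 10.6% ± 0.85. The 3 dopamine libraries were separate from the 3 serotonin libraries in all groups but ACR-8. In the UNC-29 group this rested on acr-3, without which the group held 2.1% to 7.51% in dopamine and 5.43% to 6.25% in serotonin libraries. Without acr-25, the ACR-16 group held 4.12% to 6.83% and 15.9% to 19.1%. Shares in a library add up to a whole, so they do not move independently. The part of pharyngeal muscle RNA in these shares was not tested.

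**Figure D4:**
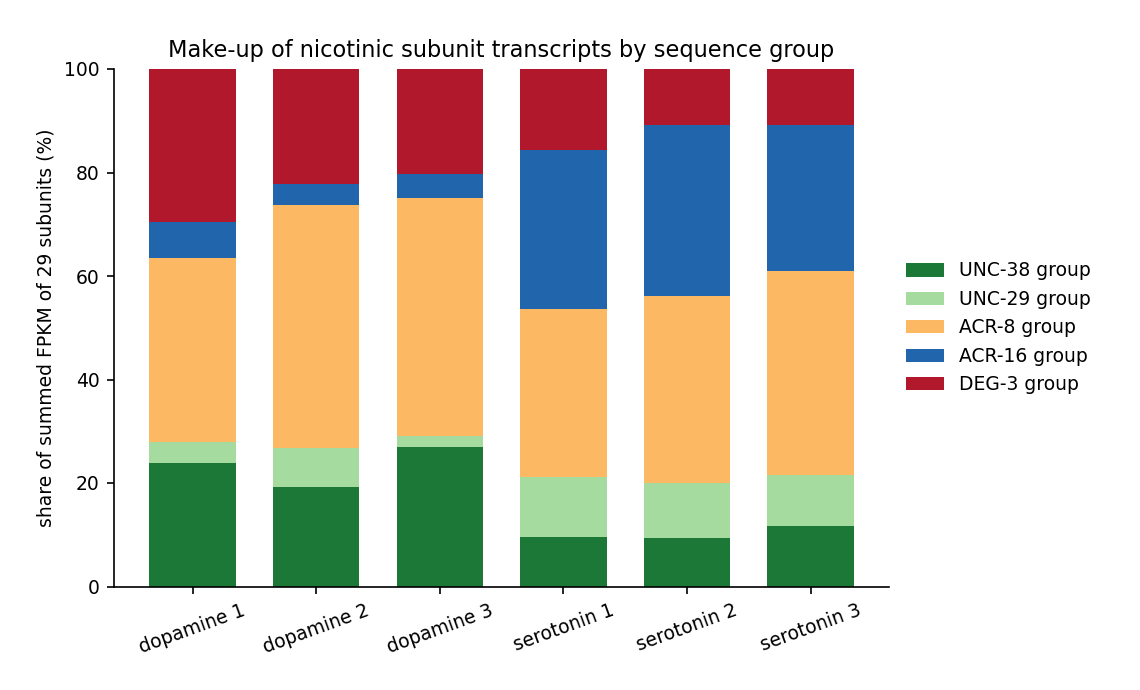
Share of the summed FPKM of the 29 subunits held by each sequence group, as stacked bars, 1 bar per library. The ACR-16 group takes 4.16% to 6.93% in dopamine and 28.4% to 33.1% in serotonin libraries, while the UNC-38 and DEG-3 groups take more in dopamine libraries.

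Of the 5 subunits of the muscle levamisole receptor, unc-38 passed and the other 4 did not. The non-alpha subunits unc-29 and lev-1 and the alpha subunit lev-8 overlapped between the cell types. The means of unc-29 were 69.7 ± 45.4 in dopamine and 82.95 ± 14.1 in serotonin libraries, those of lev-1 144 ± 83.2 and 123 ± 36.7, and those of lev-8 40.6 ± 35.6 and 55.2 ± 12.9. Their 95% intervals on the log2 scale were -1.86 to 0.84, -0.96 to 1.20 and -2.64 to 0.83. In dopamine 2 all 3 were at their highest among the dopamine libraries. The body-wall muscle markers summed highest in dopamine 3, at 52194 normalized counts, against 32657 in dopamine 1 and 36421 in dopamine 2. The sum was mostly unc-54, at 46551 in dopamine 3, and among the dopamine libraries unc-27 was also highest there. The markers myo-3, hlh-1, unc-15, unc-22, mup-2 and unc-45 were each highest in dopamine 2 among the dopamine libraries. The part of these markers in the levels of unc-29, lev-1 and lev-8 was not tested.

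In the DEG-3 group, deg-3 and des-2 encode the subunits of a channel that choline opens, and they lie 112 bases apart on the same strand of chromosome V. The gene des-2 held 126 ± 26.1 normalized counts in dopamine and 70.8 ± 17.7 in serotonin libraries, and deg-3 held 79.02 ± 27.6 and 62.8 ± 22.97. Neither passed (limma adjusted p of 0.303 and 0.761 at log2 fold changes of 0.84 and 0.34, both below 0 when scaled to pan-neuronal genes), although every dopamine library of des-2 lay above every serotonin library. Per length, des-2 stood at 0.988 to 1.85 times deg-3 in dopamine and 0.847 to 1.2 times in serotonin libraries, and these ranges overlapped. Markers of touch receptor and PVD neurons, in which this channel is known, summed to 933 to 2010.5 normalized counts in dopamine and 577 to 793 in serotonin libraries. Of these 6 markers, 1 passed toward dopamine neurons, beside 3.16% of all tested genes, and none of the 6 was at 0. Their part in the level of deg-3 and des-2 was not tested.

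The gene acr-18 held 123 ± 50.7 and 96.8 ± 7.79 normalized counts and acr-17 held 10.7 ± 2.87 and 25.8 ± 17.8, and neither passed. The untested member was acr-23, which encodes a receptor for betaine and the target of monepantel. It had 34, 1 and 7 reads in the dopamine and 65, 9 and 1 in the serotonin libraries, a wide spread within each group. In the UNC-38 group acr-6 was of the same kind, with 28, 1 and 42 reads against 68, 7 and 12 (95% interval of the log2 fold change -3.06 to 2.60).

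Genes that act with these receptors were compared in the same fit. Of 7 genes for making, taking up and breaking down acetylcholine, the acetylcholinesterase genes ace-1 and ace-3 were higher in dopamine neurons. The same fit called 3.16% of all tested genes in that direction. Normalized counts of ace-1 were 871, 789 and 1670.0 in the dopamine and 177, 294 and 109 in the serotonin libraries, with no overlap (log2 fold change 2.55, SE 0.41, limma adjusted p = 0.00216). Those of ace-3 were 615, 465 and 830.2 against 293, 279 and 187 (log2 fold change 1.32, SE 0.33, limma adjusted p = 0.0281). Leaving out dopamine 1 ended the ace-3 call (limma adjusted p of 0.0625), as did leaving out dopamine 3 (0.126), serotonin 2 (0.0553) or serotonin 3 (0.0895) and scaling to pan-neuronal genes (0.439), and the alternatives ranged from 0.00338 to 0.439. The genes ace-2 and ace-4 overlapped between the groups and missed the threshold.

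The 4 genes listed as marking cholinergic neurons were detected in all 6 libraries. The vesicular acetylcholine transporter gene unc-17 held 151 ± 54.7 normalized counts in dopamine and 228 ± 148 in serotonin libraries, the choline acetyltransferase gene cha-1 109 ± 75.1 and 181 ± 127, and the choline transporter gene cho-1 54.1 ± 10.7 and 114 ± 32.3. The gene unc-3, a transcription factor of cholinergic motor neurons, held 231 ± 128 and 142 ± 70.3. None passed, although every serotonin library of cho-1 lay above every dopamine library. The genes cha-1 and unc-17 share exonic sequence over 3.18% of that of cha-1. The median log2 fold change of the 7 acetylcholine genes was -0.49.

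Of 13 genes listed for assembly, trafficking and clustering of the receptors, 12 were found by symbol and unc-74 was not analysed here. Of the 11 tested, none passed by limma or edgeR, beside 9.52% and 7.39% of all tested genes. None had an unadjusted limma p under 0.05, beside 3524 of all 15750 tested genes. The chaperone gene ric-3, needed for folding of nicotinic subunits, was abundant in both, at 2589, 2728 and 3895 normalized counts in the dopamine and 1327, 1477 and 3318 in the serotonin libraries. Serotonin 3 lay among the dopamine libraries, and the other serotonin libraries lay below them. It passed toward dopamine neurons with the replicate block in limma (adjusted p = 0.0241), though not in edgeR with the same block (adjusted p = 0.0501), and without serotonin 3 (0.0371), against 0.269 in the fit to all 6 libraries (range over the alternatives 0.0241 to 0.599).

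The genes nra-4 and nra-2, whose products act on receptor composition in the endoplasmic reticulum, held 2645 ± 306 against 1962 ± 356 and 1322 ± 80.5 against 1118 ± 153. The Golgi trafficking gene unc-50 held 646 ± 112 against 427 ± 54.03, with all dopamine libraries above all serotonin libraries, and lev-10, which clusters the muscle levamisole receptor, held 978 ± 241 against 1170.0 ± 610.0. The EAT-2 partner gene eat-18 stayed below the filter, at 8.56 ± 11.5 normalized counts in the dopamine and 12.1 ± 5.99 in the serotonin libraries. Exons of eat-18 overlap those of lev-10 on the same strand over 85.2% of their length, and those of lev-10 overlap eat-18 over 92%, so the reads of this pair cannot be divided with certainty. The median log2 fold change of the 11 tested genes was 0.29.

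**Figure D5:**
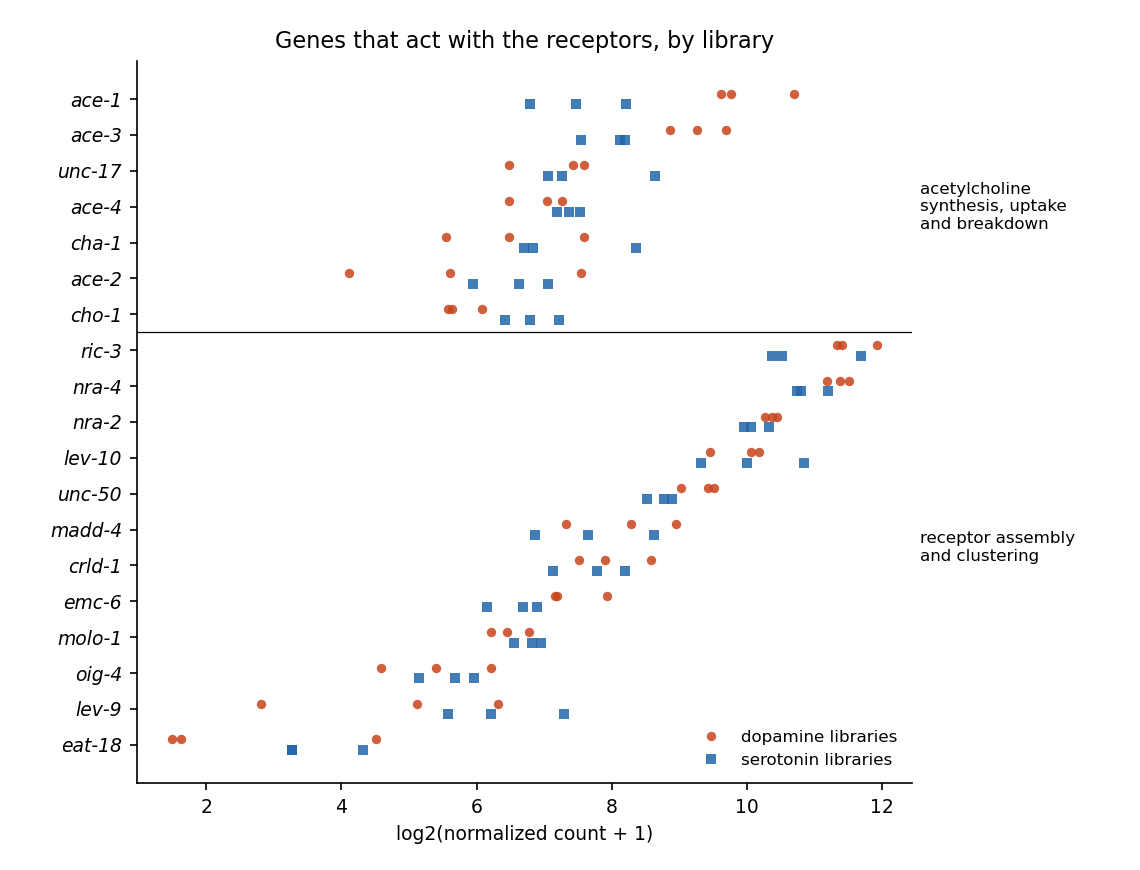
Levels of 7 acetylcholine genes and 12 receptor assembly and clustering genes in each library as log2(normalized count + 1), with dopamine libraries as circles and serotonin libraries as squares. The groups are separate and dopamine is higher for ace-1 and ace-3, while ric-3, nra-4 and nra-2 are abundant in all 6 libraries.

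For all 7 called subunits the groups did not overlap. Their direction was therefore bound to be the same without the 2 libraries rich in ribosomal RNA, dopamine 1 and serotonin 3. It was equally bound to be the same between those 2 libraries alone. Without them 1 of the 28 tested subunits passed toward dopamine and 3 toward serotonin neurons, against 6.65% of all genes, 1.87% and 4.78% by direction. These were unc-38, acr-25, acr-3 and acr-7 (limma adjusted p = 0.0181, 0.0076, 0.0101 and 0.0458).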

How the data were processed

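RNA-seq was run on 3 dopamine and 3 serotonin neuron libraries, made from amplified nanogram amounts of RNA per the labels' protocols. STAR, HTSeq and DESeq2 were used, per the submitters' processing notes. Their versions, the build and the strand setting were not given in the sources used here. Deposited by the authors were a signal, namely counts normalized by 1 factor per library, and FPKM values on the same scale between libraries (largest CV of their ratio 1.71e-04 over 1351 genes). Low values, up to 20 reads, were whole multiples of the value of 1 read within 0.02 in 100% of cases, and 1 read was worth 0.393 to 1.23, so reads were recovered. Reads of libraries within a group differed far beyond sampling noise, with a chi-square of 116 to 458 per degree of freedom.

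Positions come from the Ensembl annotation of WBcel235, matched by gene identifier for 46407 of 47063 genes. Values were taken as log2(normalized count + 1). Genes with at least 10 in at least 3 libraries were tested by limma 3.58.1 (trend, robust; R 4.3.3) with Benjamini-Hochberg adjustment. Alternatives were pseudocounts of 0.5 and 8, other filters and scalings, log2(FPKM + 1), array weights, recovered reads in edgeR 4.0.16 or DESeq2 1.42.0, an adjusted p under 0.10, and leaving out libraries. edgeR called 1164 genes against 1500. Libraries of the same number deviated together from their group means (correlations 0.433, 0.173 and 0.28), and the block on replicate number is therefore given where it changes a call. Members and lists were chosen with earlier results of these data known. Values per library are given for subunits that passed, the 6 highest by FPKM in either cell type, and those whose call the block or 1 left-out library changes, and others were added. Methods were tested on simulated data.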

Additional observations from a re-analysis of the deposited data

How the results depend on the processing

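The subunits unc-38, acr-25 and acr-3 passed in the same direction under all 21 alternative fits, and none of the 7 called subunits changed direction in a fit that gave it a value (20 for acr-7, which had none at the filter of 50, and 21 for the others). Since the groups of these 7 did not overlap, only fits that rescaled the libraries or used recovered reads could have turned their direction. The count of subunits higher in dopamine neurons was 4, and 1 when scaled to pan-neuronal genes, 2 on the FPKM scale, 1 without the 2 libraries rich in ribosomal RNA, and 2 to 4 when 1 library was left out. It was 6 after quantile normalization, by DESeq2, with the replicate block in limma or edgeR and at an adjusted p under 0.10. The count higher in serotonin neurons was 3, and 5 with a pseudocount of 8 or by DESeq2, and 8 scaled to pan-neuronal genes. It was 6 with the replicate block in limma but 3 in edgeR, and 6 at an adjusted p under 0.10. For quantile normalization, DESeq2, the FPKM scale, a pseudocount of 8 and 1 library left out, the share of all genes called is not given. Nor is it given at an adjusted p under 0.10, so these counts have no background to stand beside. Accessory genes higher in dopamine neurons numbered 0, and 1 with the replicate block in limma (0 in edgeR) and 0 to 1 with 1 library left out, and 1 was higher in serotonin neurons when scaled to pan-neuronal genes. Acetylcholine genes higher in dopamine neurons numbered 2, and 1 with no filter, scaled to pan-neuronal genes, on the FPKM scale or without the 2 libraries, and 1 to 2 with 1 library left out, and 1 was higher in serotonin neurons when scaled to pan-neuronal genes. That scaling divides each library by the level of its pan-neuronal genes. These stood higher in the dopamine libraries, so log2 fold changes fell in general, with the median of all genes at -0.985.

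Genes whose log2 fold change turned were not called in either fit, and the cause was not tested. Scaled to pan-neuronal genes these were acr-12 (-0.48), lev-1 (-0.81), acr-18 (-0.67), des-2 (-0.09), deg-3 (-0.59), ric-3 (-0.25), unc-50 (-0.35), crld-1 (-0.64), madd-4 (-0.46), nra-2 (-0.69), nra-4 (-0.50) and emc-6 (-0.09). After quantile normalization they were acr-16 (0.11), acr-21 (0.22), acr-6 (0.91), acr-14 (0.45) and oig-4 (0.09). For acr-6 the values were 0.07 with a pseudocount of 8 and on the FPKM scale, 0.30 by edgeR and 0.26 by DESeq2. Without the 2 libraries rich in ribosomal RNA they were acr-16 (0.22), cha-1 (0.27), lev-10 (0.09), unc-17 (0.35) and oig-4 (0.39), and with array weights lev-10 (0.04). With 1 library left out the ranges were -0.32 to 0.48 for lev-1, -0.03 to 0.60 for acr-18, -0.99 to 0.15 for unc-29, -0.54 to 0.05 for acr-16, -1.65 to 0.63 for acr-21, -0.98 to 1.17 for acr-6, -0.51 to 0.30 for acr-14, -1.69 to 0.03 for ace-2, -0.53 to 0.23 for lev-10, -0.79 to 0.00 for unc-17 and -0.61 to 0.21 for oig-4.

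Depth limits the low subunits most. In dopamine neurons acr-3, acr-7, acr-11 and acr-25 rested on 8, 20, 22 and 23 reads over 3 libraries. The reads are not independent molecules, since the RNA was amplified.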
